A study of Mus musculus with 6 samples.

Results

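The genes described here make up the core of MHC class I antigen presentation: the heavy chain genes H2-K1, H2-D1 and H2-T23, the light chain gene B2m, the peptide transporter genes Tap1 and Tap2, the tapasin gene Tapbp, and the immunoproteasome genes Psmb8, Psmb9 and Psmb10. They were taken by symbol from a gene count table of 54532 genes, in which each of the 10 symbols has 1 row. All 10 were among the 13290 genes that passed the filter on low counts. L929 is a mouse fibroblast line. Its untreated cells gave 3 control libraries, and 3 treated libraries came from cells exposed for 12 hours to a mixture of TNF-α (10 ng/ml) and actinomycin D (1 µg/ml). All 6 libraries carry the genotype label WT. TNF-α is an inflammatory cytokine that acts through NF-κB, and actinomycin D binds DNA and blocks RNA synthesis. No group received either agent alone, so the difference belongs to the combination, and since the labels do not tie the libraries to separate cultures, the spread behind each p-value may be technical. L929 is a single established line of C3H mouse origin, which carries the k haplotype of the MHC, while the reference genome carries the b haplotype of C57BL/6; the effect of this mismatch on the heavy chain counts was not tested.

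A class I molecule is a heavy chain paired with B2m that holds a short peptide at the cell surface for inspection by CD8 T cells and natural killer cells. The peptides are cut in the cytosol by the proteasome, whose standard catalytic subunits can be replaced by the immunoproteasome subunits. They are pumped into the endoplasmic reticulum by the TAP1-TAP2 transporter and loaded onto class I with the help of tapasin, calreticulin and ERp57. In most cells the genes are raised together by interferon and by NF-κB, with NLRC5 as the class I transactivator.

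Library totals ran from 16056207 to 18036322 counts. TMM scaling factors, which hold the bulk of genes level between libraries, spanned 1.34 to 1.53 for the controls and 0.640 to 0.797 after treatment. The choice of scale therefore moves every fold change, and total RNA per cell was not measured. Levels below are CPM, counts scaled by the library total and its TMM factor, or CPM per kb of gene length, and changes are log2 fold changes of treated against control on that scale, with their standard error (SE). A gene is said to rise or fall where edgeR's quasi-likelihood test gave a Benjamini-Hochberg adjusted p under 0.05. Fibroblast genes checked the label: Col1a2 was at 1807 ± 219 CPM in controls and Vim at 2479 ± 385 CPM, while Thy1, another fibroblast gene, was nearly absent, with 6 control counts in all and 0 after treatment. Among genes of other cell types, Itgam, Cd3d, Cd8a, Epcam and Kdr held 0 counts in all 6 libraries, and Adgre1 and Ptprc held 1 count each. These come from longer lists, of which other genes had counts. The 6 epithelial markers summed to 2.74 to 3.99 CPM in controls and 9.85 to 12.8 CPM in treated libraries. The 1 tested among them rose by 1.63. The 8 macrophage markers summed to 8.22 to 9.69 CPM in controls and 31.5 to 48.7 CPM in treated libraries. Of the 9 lymphocyte and 5 endothelial markers 0 had enough counts to be tested.

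After treatment 9 of the 10 class I pathway genes rose and 1, Tap1, fell. Over all genes tested, 34.6% rose and 40.2% fell, 74.8% in all. The median log2 fold change of the 10 genes was 2.40, against −0.18 over all genes tested, and 9 of the 10 lay above that overall median. With cytosolic ribosomal protein genes held equal, which lowers the median of all genes by 2.33, only H2-K1 and H2-D1 still rose, and Tap1, Tap2, Psmb8 and Psmb10 fell. Together the 10 genes took 0.240% ± 0.007 of all counts in controls and 0.756% ± 0.019 in treated libraries (SD, n = 3 libraries per group). Most of it was 2 genes. H2-K1 took 0.0756% to 0.0917% in controls and 0.263% to 0.345% in treated libraries, and B2m 0.094% to 0.104% and 0.290% to 0.345%. That share uses no scaling factor, and so is on the scale of library size alone, where the median log2 fold change of all genes was −1.21. Its groups did not overlap, and the exact two-sided permutation p was 0.1, the smallest that 3 against 3 allow. In every treated library the values of all 9 risen genes lay above every control library, as they did for 35.9% of genes tested.

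**Figure D1:**
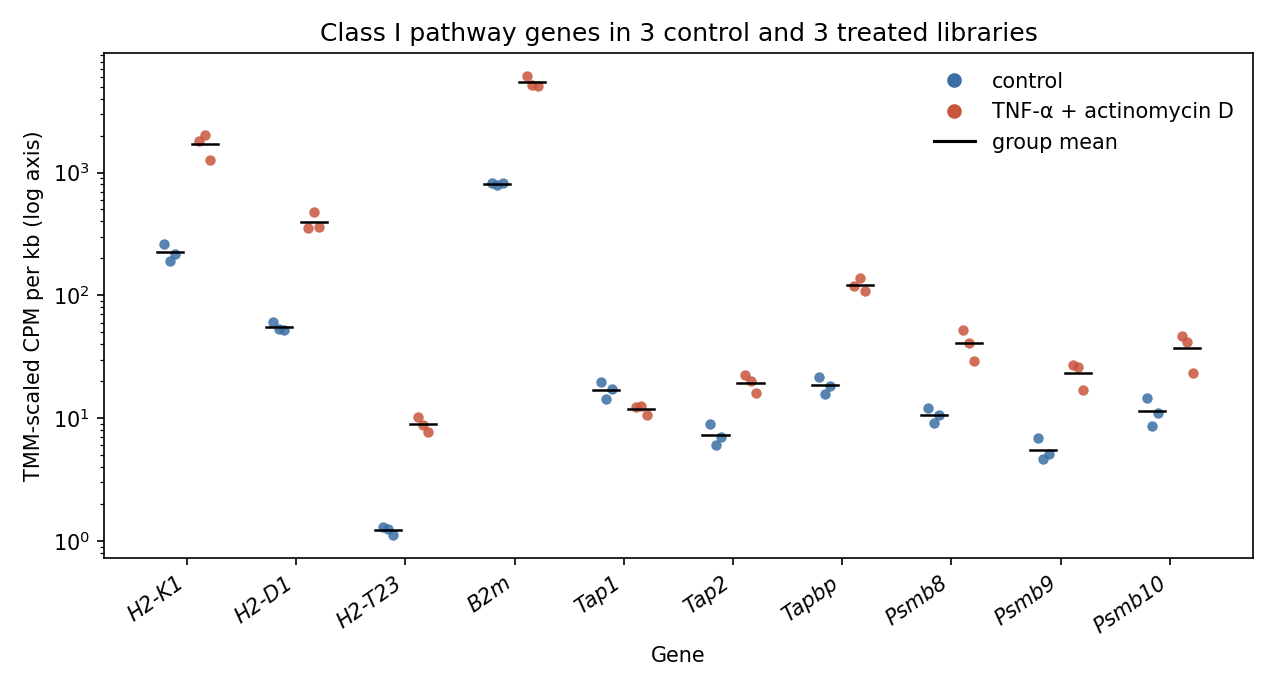
Levels of the 10 genes in each library, in TMM-scaled CPM per kb of gene length on a log axis; points are libraries (blue, 3 control; red, 3 treated) and black lines are group means. B2m is the highest and H2-T23 the lowest in both groups, and Tap1 is the gene whose treated points lie below its control points.

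The MHC class I heavy chain genes rose about as much as each other, and as B2m before any correction for gene length. H2-K1, a classical heavy chain gene on chromosome 17 (chr17:33996017-34000333, GRCm38, minus strand), stood at 684, 496 and 566 CPM in the control libraries and at 4750, 5240 and 3310 CPM in the treated ones. Every treated library was several times above every control, with treated replicate 3 the lowest of its group. The log2 fold change was 2.93 ± 0.24 (SE; adjusted p = 1.39e-06, edgeR), a 7.61-fold difference, placed at the percentile 96.9 of all genes tested. H2-D1, the second classical heavy chain gene (chr17:35262730-35267499, plus strand), had 157, 137 and 135 CPM in controls and 905, 1230 and 935 CPM after treatment, a log2 fold change of 2.84 ± 0.19 (adjusted p = 5.89e-07). Here treated replicate 2 was the highest, and the controls lay close together.

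H2-T23 encodes Qa-1, a non-classical class I molecule that presents leader peptides of other class I chains to NKG2A receptors. It was the least abundant member, with 90, 89 and 81 counts in controls and 338, 286 and 292 counts in treated libraries. On the CPM scale that is 3.73, 3.64 and 3.20 against 29.8, 25.3 and 22.3, with no overlap, and the log2 fold change was 2.87 ± 0.22 (adjusted p = 1.11e-06). Low abundance in controls therefore went with a change about as large as that of H2-K1.

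B2m, the invariant light chain that every class I heavy chain needs to reach the surface, lies outside the MHC on chromosome 2 (chr2:122147686-122153083, plus strand). It held 702, 684 and 708 CPM in controls and 5250, 4410 and 4330 CPM in treated libraries. Its control SD of 12.4 on a mean of 698 CPM was the smallest relative spread among the members. The log2 fold change was 2.74 ± 0.18 (adjusted p = 6.46e-07), and the gene alone took 0.094% to 0.104% of control counts and 0.290% to 0.345% of treated counts. B2m is also the shortest member, at 860 bases, and falls in the shortest of 10 length bands of like size (57 to 1118 bases), whose median log2 fold change was 1.78. Once a trend of fold change with gene length was removed, its change was 1.36 ± 0.18 (adjusted p = 4.55e-05), while H2-K1 kept 2.66 and H2-T23 2.74.

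The sequence upstream of these genes is shown because H2-K1, H2-D1 and B2m rose together and because class I promoters are known for NF-κB and interferon regulatory factor elements in this stretch. All are from RefSeq, build GRCm38.p6, from the 250 bases before the RefSeq start site, 5′ to 3′ on the gene's strand. The H2-D1 line lies upstream of that start but within the deposited H2-D1 gene (chr17:35262730-35267499), which starts earlier. For the MHC genes these are letters of the reference genome's b haplotype, not of the k haplotype of these cells. Whether the cells carry the same letters and matches was not tested, nor was any part of them in the rise. Capitals mark matches to 5 patterns searched on both strands: GGG and CCC with 5 bases between (κB-like), GAA and GAAA with 2 bases between (short IRF-like), GAAA and GAAA with 2 bases between (long IRF-like), TGACG (CRE-like) and CCAAT. Matches to the 2 IRF-like patterns can overlap each other. The first 3 of the lines below run 30 bases from the κB-like to the IRF-like match, H2-Q4 being another class I gene, and the other 2 end with a κB-like match.
H2-K1, chr17:34000429-34000458, minus strand: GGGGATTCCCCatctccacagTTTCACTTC
H2-D1, chr17:35262923-35262952, plus strand: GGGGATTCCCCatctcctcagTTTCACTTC
H2-Q4, chr17:35379443-35379472, plus strand: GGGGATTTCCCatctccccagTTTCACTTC
B2m, chr2:122147541-122147570, plus strand: agaacatGAAACTGAAAatGGGAAAGTCCC
Tap1, chr17:34187461-34187490, plus strand: agagacaggTGACGacagaGGGTCCTGCCC

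In the H2-K1 and H2-D1 windows of the reference genome 203 of 250 bases could be aligned, with 87.2% identity. B2m has a long IRF-like match where H2-K1 and H2-D1 have a short one, and it lies upstream of the κB-like match rather than downstream. A κB-like match occurred in 12.2% of all 32851 promoter windows, a short IRF-like match in 6.31%, a long one in 2.98%, TGACG in 17.8% and CCAAT in 33.8%. The longer stretch before H2-K1 shows all of its matches up to the first annotated exon, including TGACG and an inverted CCAAT box (chr17:34000348-34000583, minus strand).
H2-K1 upstream: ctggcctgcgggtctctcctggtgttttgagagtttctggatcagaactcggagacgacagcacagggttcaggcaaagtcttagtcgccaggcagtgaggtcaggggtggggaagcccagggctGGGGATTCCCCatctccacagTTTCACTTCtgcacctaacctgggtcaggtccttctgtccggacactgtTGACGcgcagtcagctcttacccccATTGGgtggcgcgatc
The same for B2m (chr2:122147437-122147685, plus strand) holds 2 κB-like matches, of which the second is the one in the line above.
B2m upstream: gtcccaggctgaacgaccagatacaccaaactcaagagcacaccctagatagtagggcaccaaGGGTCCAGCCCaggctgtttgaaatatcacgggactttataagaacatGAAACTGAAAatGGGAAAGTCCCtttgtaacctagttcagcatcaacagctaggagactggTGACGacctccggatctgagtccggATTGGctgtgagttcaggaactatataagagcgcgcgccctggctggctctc
Of the other members, H2-T23 had a long IRF-like and a CCAAT match, Tapbp had CCAAT alone, Psmb9 had κB-like, TGACG and CCAAT matches, and Psmb8 and Psmb10 had none of the 5 patterns in this window. By symbol, 9 of the 10 members matched the promoter table, all but Tap2. A match is a description of letters in the reference genome, and binding was not measured.

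The peptide transporter genes moved apart. Tap1 and Tap2 encode the 2 subunits of 1 transporter and lie close together in the MHC, with Psmb8 between them. Tap1 (chr17:34187553-34197225, plus strand) had 107, 78.1 and 95.5 CPM in controls and 67.4, 68.5 and 58.1 CPM in treated libraries. The groups did not overlap, as for 42.0% of genes tested in that direction, but control replicate 2 lay close to the treated values. Its log2 fold change was −0.53 ± 0.16 (adjusted p = 0.0118), the percentile 43.4 of all genes. That call was lost with median-ratio factors (−0.41, adjusted p = 0.0542) and with DESeq2 (adjusted p = 0.0529), and the sign turned once the length trend was removed (0.14 ± 0.16, adjusted p = 0.476). Tap1 is the longest member at 5476 bases, in the length band of 4739 to 5711 bases, whose median log2 fold change was −0.64.

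Tap2 (chr17:34203527-34216321, plus strand) had 33.7, 22.7 and 26.6 CPM in controls and 84.7, 75.5 and 60.8 CPM in treated libraries. All treated values were above all controls, and the log2 fold change of 1.41 ± 0.20 (adjusted p = 6.79e-05) was the smallest rise among the members on this scale; with the length trend removed it was 1.66, and Psmb10 (0.99) was the smallest. By library size alone it was 0.36 (adjusted p = 0.0631), and with ribosomal protein genes held equal it was −0.94 (adjusted p = 0.00156). Within each library, the ratio of Tap1 to Tap2 per kb of gene length was 2.19, 2.38 and 2.48 in controls and 0.549, 0.627 and 0.660 in treated libraries. Thus the more abundant of the 2 transporter mRNAs was Tap1 in every control library and Tap2 in every treated one. The ratio fell by 1.94 on the log2 scale (exact two-sided permutation p = 0.1, the smallest possible here; 0.2 after Benjamini-Hochberg adjustment over 10 pairs). A ratio within a library does not change with the scaling factor.

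Tapbp encodes tapasin, which bridges empty class I molecules to the TAP transporter and favours the loading of tightly binding peptides. It lies beside the class I region (chr17:33915899-33929288, plus strand) and had 72.0, 51.3 and 59.9 CPM in controls and 395, 456 and 358 CPM in treated libraries. With no overlap, its log2 fold change was 2.72 ± 0.18 (adjusted p = 6.18e-07), close to the heavy chains and above Tap2. Tapbp overlaps Zbtb22 on the same strand over 3421 bases, and reads there could be assigned to either gene; Zbtb22 held 2601 counts over the 6 libraries and Tapbp 18825.

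The immunoproteasome genes all rose. Psmb8, for the chymotrypsin-like subunit β5i (chr17:34197721-34201454, plus strand), had 32.9, 24.9 and 29.2 CPM in controls and 142, 112 and 79.5 CPM after treatment, a log2 fold change of 1.94 ± 0.22 (adjusted p = 1.43e-05). Psmb9, for β1i (chr17:34181988-34187764, minus strand), had 25.0, 17.1 and 18.8 CPM against 98.5, 96.3 and 62.0 CPM, a change of 2.07 ± 0.23 (adjusted p = 1.05e-05). Psmb10, for β2i, lies on chromosome 8 (chr8:105935735-105938444, minus strand) and had 24.7, 14.6 and 18.9 CPM against 80.0, 71.7 and 39.7 CPM, a change of 1.71 ± 0.28 (adjusted p = 0.000281). In each of the 3 genes treated replicate 3 was the lowest treated library, and control replicate 2 the lowest control. With ribosomal protein genes held equal, the changes of Psmb8, Psmb9 and Psmb10 were −0.45, −0.30 and −0.67, of which the first and last were called lower. With the length trend removed they were 1.73, 2.28 and 0.99, all called higher.

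Each immunoproteasome subunit takes the place of a standard one, Psmb8 of Psmb5, Psmb9 of Psmb6 and Psmb10 of Psmb7, and the standard genes rose too. Psmb5 went from 88.9 ± 13.5 to 253 ± 71 CPM, a log2 fold change of 1.51 ± 0.21. Psmb6 went from 119 ± 23 to 501 ± 152 CPM (2.07 ± 0.24) and Psmb7 from 113 ± 12 to 298 ± 104 CPM (1.40 ± 0.23). All 3 were negative with ribosomal protein genes held equal, Psmb5 was no longer called once the length trend was removed (0.17, adjusted p = 0.485), and Psmb7 was not called by library size alone (0.34, adjusted p = 0.126) or with mitochondrially encoded protein genes held equal (0.83, adjusted p = 0.0603).

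Ratios within libraries show how far the 2 sets moved together. Per kb, Psmb8 was at 0.104, 0.106 and 0.112 of Psmb5 in controls and at 0.142, 0.150 and 0.141 in treated libraries, a 1.34-fold rise in the ratio with no overlap (exact p = 0.1, adjusted 0.2). Psmb9 was at 0.0888, 0.0887 and 0.0837 of Psmb6 in controls and at 0.0771, 0.0987 and 0.0905 after treatment, so the groups overlapped (1.01-fold, exact p = 0.8). Psmb10 was at 0.408, 0.297 and 0.326 of Psmb7 in controls and at 0.386, 0.566 and 0.359 in treated libraries, again overlapping (1.26-fold, exact p = 0.3). The standard subunit mRNA was thus the more abundant per kb in every library for all 3 pairs. With the length trend removed the change was 1.73 for Psmb8 and 0.17 for Psmb5, a wider gap than in the uncorrected ratio. The other 2 ratios also pair genes of unlike length. Psmb6 (1872 bases) and Psmb10 (1705 bases) lie in a length band with a median log2 fold change of 0.96. Psmb9 (3659 bases) and Psmb7 (3421 bases) lie in a band with a median of −0.12. Whether these 2 ratios hold with the trend removed was not tested.

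**Figure D2:**
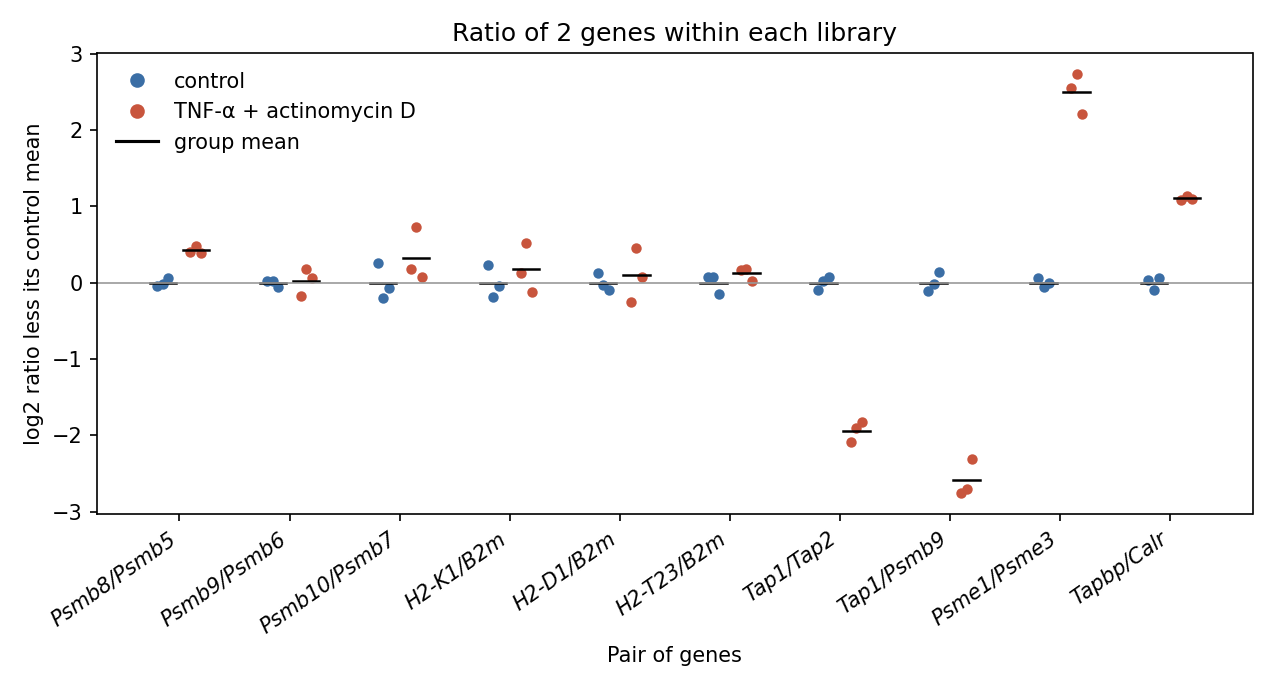
Log2 ratio of 2 genes within each library, per kb of gene length, less the control mean of that pair; points are libraries (blue, control; red, treated) and black lines are group means. The ratios of Tap1 to Tap2 and to Psmb9 lie 1.94 and 2.59 below the control mean, those of the heavy chains to B2m overlap between groups, and Psme1 to Psme3 lies 2.50 above.

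Among the heavy chains, the ratio to B2m overlapped between groups in all 3 cases. H2-K1 per kb was at 0.321, 0.239 and 0.264 of B2m in controls and at 0.298, 0.392 and 0.252 in treated libraries (1.13-fold, exact p = 0.6). For H2-D1 the ratio was 0.0681 in controls and 0.0728 in treated libraries (geometric means, 1.07-fold, exact p = 0.8), and for H2-T23 it was 0.00151 and 0.00164 (1.09-fold, exact p = 0.3). In log2 terms the 3 differences were 0.18, 0.10 and 0.13, with pooled SDs between libraries of 0.28, 0.26 and 0.11. Differences of that size are within the spread between libraries for H2-K1 and H2-D1. These ratios carry no correction for the trend with gene length; with it removed the log2 fold changes were 2.66 for H2-K1, 2.56 for H2-D1 and 2.74 for H2-T23, against 1.36 for B2m.

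Tap1 and Psmb9 are transcribed away from each other, and their RefSeq start sites lie 225 bases apart. The Tap1 stretch printed above therefore also lies upstream of the RefSeq start of Psmb9. The deposited Psmb9 gene (chr17:34181988-34187764) reaches further and covers that stretch. Despite this shared stretch, the Tap1 to Psmb9 ratio per kb was 2.86, 3.05 and 3.40 in controls and 0.457, 0.476 and 0.626 in treated libraries. It fell by 2.59 on the log2 scale with no overlap (exact p = 0.1, adjusted 0.2). The 2 genes overlap by 212 bases on opposite strands in the deposited annotation, and the sources used here do not give whether counting used strand.

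The order of the members by CPM per kb changed little outside the transporter genes. Controls ranked B2m (812 ± 14), H2-K1 (223 ± 37), H2-D1 (55.4 ± 4.8), Tapbp (18.5 ± 3.2), Tap1 (17.1 ± 2.7), Psmb10 (11.4 ± 3.0), Psmb8 (10.6 ± 1.5), Tap2 (7.32 ± 1.48), Psmb9 (5.55 ± 1.14) and H2-T23 (1.22 ± 0.10). After treatment the order was B2m (5424 ± 596), H2-K1 (1698 ± 385), H2-D1 (397 ± 71), Tapbp (122 ± 15), Psmb8 (40.6 ± 11.4), Psmb10 (37.4 ± 12.5), Psmb9 (23.4 ± 5.6), Tap2 (19.5 ± 3.2), Tap1 (11.8 ± 1.0) and H2-T23 (8.93 ± 1.32). In controls the library values of neighbours overlapped from Tapbp to Psmb8 and again between Tap2 and Psmb9, so those places are not resolved, and after treatment they overlapped from Psmb8 to Tap2. B2m, H2-K1 and H2-D1 kept the first 3 places without overlap.

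The closest profiles over the 6 libraries among other protein-coding genes belonged to Atp5g2, Atp6v0d1 and Cisd1, for a subunit of ATP synthase, a subunit of the vacuolar proton pump and a mitochondrial iron-sulphur protein. Their root mean square difference from the mean profile of the 10 members was 0.032 to 0.034 on the log2 scale. The measure rests on 6 libraries in 2 groups, and the likeness includes the library order, with treated replicate 3 lowest at 1.77 and the others at 2.22 and 2.18 above the control mean.

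Most other class I genes moved in the same direction. Of 21 listed class I and class I-like genes in the table, 11 were tested. Of these 10 rose and 0 fell, beside 34.6% and 40.2% of all genes tested, and the median log2 fold change of the 11 was 2.39. H2-Q2, 1 of the 10, had 0 control counts, so it passed the filter through the treated group alone and could only be called higher. DESeq2 and limma-voom also called 10 higher and 0 lower, and the gene not called had a value above 0. Fcgrt, for the neonatal Fc receptor, rose by 3.38 ± 0.19 from 11.1 ± 1.0 to 115 ± 22 CPM. H2-Q1 rose by 3.04 ± 0.17, with 12.6, 13.7 and 10.5 CPM in controls and 107, 92.6 and 103 CPM after treatment. H2-Q4, whose promoter stretch is printed above, had 109, 91.4 and 89.6 CPM in controls and 640, 613 and 446 CPM after treatment (2.55 ± 0.19). H2-Q2 held 0 counts in each control library and 84, 20 and 22 counts in the treated ones, at least 86.9-fold higher against a floor of 3 counts over the control group. Its treated counts lay mostly in replicate 1, and without that library the fitted log2 change went from 9.05 to 8.03. H2-Q10 was not called (0.01, adjusted p = 0.988). With ribosomal protein genes held equal, 3 of the 11 rose and 2 fell.

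Class I heavy chain genes resemble each other, which limits the counts of single members. Of all stretches of 50 bases in the annotated transcripts of H2-K1, 9.63% also occur in transcripts of another gene, most often H2-Q10. The share was 12.8% for H2-D1, 13.6% for H2-T23 and 21.8% for H2-Q4. It was 0% for B2m, Psmb9 and Psmb10 and 2.87% for Tapbp, 0.655% for Tap2, 0.442% for Tap1 and 0.227% for Psmb8. The sources used here give no rule for reads from shared stretches, so the split among heavy chain genes is uncertain.

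Of 10 partner genes in the endoplasmic reticulum 9 rose and 1 fell, beside 34.6% and 40.2% of all genes tested. The median of the 10 was 1.25, or 1.60 with the length trend removed, where the members' median was 2.00. Calr, for calreticulin, rose by 1.62 ± 0.19, Pdia3, for the disulphide isomerase ERp57, by 1.60 ± 0.17 and Canx, for calnexin, by 1.11 ± 0.16. Prkcsh, for the β subunit of glucosidase II, led the list at 2.35 ± 0.20, and Erap1, the aminopeptidase that trims peptides for class I, rose by 1.09 ± 0.20 from 15.1 ± 2.2 to 32.1 ± 5.2 CPM. Tapbpl, for the tapasin relative TAPBPR, rose by 1.39 ± 0.24. The chaperone gene Hspa5 fell by 0.68 ± 0.17, which was not called after removal of the length trend. By library size alone 4 of the 10 rose and 2 fell, and with ribosomal protein genes held equal 9 fell and 0 rose; Canx, Erap1 and Tapbpl were among the calls lost by library size. Within libraries Tapbp rose against Calr, from a ratio per kb of 0.0329 to 0.0707, without overlap (2.15-fold, exact p = 0.1, adjusted 0.2).

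All 14 other subunits of the proteasome's catalytic core rose, beside 34.6% of all genes tested. Their median was 1.48, led by Psmb3 (2.25 ± 0.23), Psma7 (2.16 ± 0.23) and Psmb6. With ribosomal protein genes held equal 11 of the 14 fell. By library size alone 9 of the 14 rose, with mitochondrially encoded protein genes held equal 8, and with the length trend removed 11. In each of these settings 0 fell. Among 9 activators and assembly factors 4 rose and 3 fell, near the shares over all genes. Psme1 and Psme2 encode the 2 subunits of PA28αβ, an interferon-responsive activator that opens the core for peptide release. Psme1 had 31.7, 23.8 and 25.6 CPM in controls and 173, 181 and 130 CPM in treated libraries, a log2 fold change of 2.58 ± 0.19, against at most 2.25 among the core subunits outside the members, a difference that was not tested; with ribosomal protein genes held equal it was not called (0.22, adjusted p = 0.247). Psme2 had 13.1, 11.6 and 11.2 CPM in controls and 180, 91.9 and 62.6 CPM in treated libraries, a change of 3.22 ± 0.35 that became 2.61 without treated replicate 1. Psme3, for the nuclear activator PA28γ, was at 178 ± 20 and 188 ± 8 CPM (0.07, adjusted p = 0.657), and the Psme1 to Psme3 ratio per kb went from 0.202 to 1.14, or 5.64-fold, without overlap. Psme4 fell by 1.63 ± 0.31, not called after removal of the length trend, and the assembly chaperone gene Pomp rose by 2.18 ± 0.17, and Psmg2 and Psmg3, also for assembly chaperones, changed by −1.08 ± 0.17 and −1.02 ± 0.25. Psmg4, the partner of Psmg3 and named after its value was seen, rose by 0.93 (adjusted p = 0.00147). Pomp was at −0.19 with ribosomal protein genes held equal and was not called.

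Of 6 cytosolic peptidase genes, whose products trim or destroy peptides, 3 rose and 2 fell, beside 34.6% and 40.2% of all genes tested. Lap3, Nrd1 and Blmh rose by 0.76 ± 0.17, 0.63 ± 0.16 and 0.54 ± 0.16, and Tpp2 and Npepps changed by −1.52 ± 0.26 and −0.62 ± 0.19. None of the 3 rises held by library size alone, where Blmh was called lower (−0.51), Blmh was not called without control replicate 3 (0.50, adjusted p = 0.0553), and neither fall held once the length trend was removed.

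**Figure D3:**
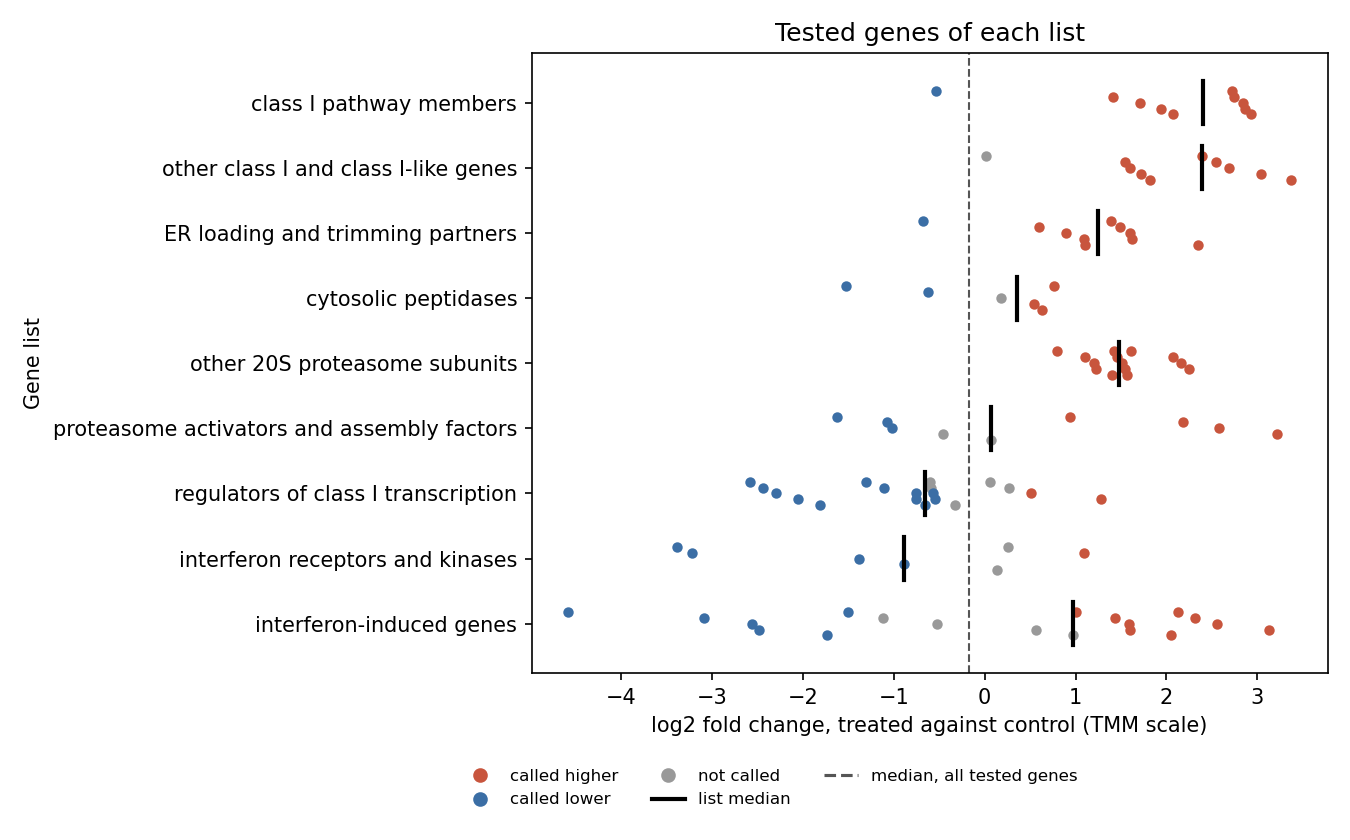
Log2 fold change of each tested gene by list (red, called higher; blue, called lower; grey, not called), with list medians as black bars and the median of all tested genes, −0.18, as a dashed line; H2-Q2 is left out because its controls were at 0. The members and the other class I genes centre at 2.40 and 2.39, and the regulators and interferon receptors at −0.66 and −0.89.

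Of 19 tested regulators that control class I transcription 2 rose and 12 fell, beside 34.6% and 40.2% of all genes tested. The median of the 19 was −0.66. Nlrc5, for the class I transactivator, stood at 39.5, 41.9 and 43.5 CPM in controls and at 14.8, 20.5 and 38.3 CPM in treated libraries, so treated replicate 3 was near the controls. Its log2 fold change of −0.76 ± 0.30 (adjusted p = 0.0386) lost the call without any 1 of control replicates 1, 2 and 3 or treated replicates 1 and 2 (adjusted p = 0.0572 to 0.119), and with upper-quartile factors or protein-coding genes only, and its sign turned once the length trend was removed (0.26, adjusted p = 0.453). Irf1, an interferon- and TNF-responsive activator of class I genes, was at 15.1, 13.2 and 15.4 CPM against 9.98, 17.9 and 17.7 CPM, which overlap (adjusted p = 0.839); by library size alone it was called lower (−0.96, adjusted p = 0.0174).

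Among NF-κB subunit genes, Relb (0.26, adjusted p = 0.263) and Rel (−0.61, adjusted p = 0.087), named after their values were seen, were not called. The others were Rela at −0.66 ± 0.17, Nfkb1 at −2.29 ± 0.19 and Nfkb2 at 0.51 ± 0.17, the last called lower by library size alone (−0.51) and not called without control replicate 2 (0.41, adjusted p = 0.0841) or 3 (0.46, adjusted p = 0.0845). Nfya (−2.59 ± 0.25) and Rfxap (−2.44 ± 0.24) encode components of the factors that bind the conserved class I promoter module. They were named as the largest falls of the regulator list and do not stand for the other components. Once the length trend was removed 3 regulators rose and 7 fell, and the list median was 0.03.

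Of 7 interferon receptor and kinase genes 4 fell and 1 rose, beside 40.2% and 34.6% of all genes tested; with the length trend removed 4 fell and 3 rose. Ifngr1, a chain of the interferon-γ receptor, went from 22.7 ± 0.3 to 2.43 ± 0.13 CPM (−3.22 ± 0.22), and the receptor kinase gene Jak2 from 11.3, 21.7 and 18.1 CPM to 1.41, 0.707 and 2.67 CPM (−3.39 ± 0.43, or −4.06 without treated replicate 3). Ifnar1 changed by −1.39 ± 0.19, while Ifnar2 rose by 1.09 ± 0.17, a call lost by library size alone.

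Interferon-induced genes did not rise as a block. Of 34 such genes 19 had enough counts to be tested. Of these 9 rose and 6 fell, with a median of 0.97, beside 34.6%, 40.2% and −0.18 over all genes tested. With the length trend removed 8 rose and 4 fell, with a median of 0.11. Bst2, for the virus-tethering protein tetherin, had 36.7, 28.9 and 33.2 CPM in controls and 374, 295 and 195 CPM in treated libraries (3.13 ± 0.24), and Irf7 and Sp100 rose by 2.56 ± 0.45 and 2.31 ± 0.45 from under 1 CPM, but were not called with ribosomal protein genes held equal (0.16 and −0.04). Irgm1, an immunity-related GTPase gene, fell by 2.56 ± 0.28, Trim25 by 1.73 ± 0.28 and Ifit2 by 1.51 ± 0.50. The Ifit2 change was −2.52 without treated replicate 3 and was not called without treated replicate 2. Several genes known as strong interferon targets were near 0: Ifit1, Gbp5 and Gbp7 held 0 counts in all libraries, Mx1 held 2, and Gbp2 had 5 control and 23 treated counts. By library size alone 6 rose and 8 fell.

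MHC class II genes were checked beside class I. H2-Aa and H2-Ab1 held 0 counts in all libraries, H2-Eb1 had 5 control and 23 treated counts, and Ciita, the class II transactivator gene, held 14 and 3. Cd74, for the class II invariant chain, was nevertheless expressed, at 112, 78.8 and 91.2 CPM in controls and 756, 944 and 592 CPM in treated libraries, a log2 fold change of 3.03 ± 0.22 (adjusted p = 8.87e-07). H2-DMb1 rose by 2.36 ± 0.24 (but −0.01, adjusted p = 0.965, on the ribosomal protein gene scale), and H2-DMa was not called (−0.20, adjusted p = 0.422). Over the 9 genes of this list the summed level was 94.6 to 131 CPM in controls and 620 to 976 CPM in treated libraries, most of it Cd74. A list of 8 macrophage markers summed to 8.22 to 9.69 CPM in controls and 31.5 to 48.7 CPM in treated libraries, with Lyz2 and Cd14 higher and Mertk lower, while Itgam held no count and Ptprc and Adgre1 1 each; the part of such transcripts in the class I changes was not tested. In bulk samples fewer cells of a type and less RNA per cell cannot be told apart.

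Between the start of H2-K1 and the end of H2-T23, a span of 2037 kb, 78 protein-coding genes were tested. The 7 members among them had 6 rises and 1 fall, with a median of 2.07. Of the other 71 genes, 42 rose and 15 fell, with a median log2 fold change of 0.91. Over all genes tested 34.6% rose and 40.2% fell, with a median of −0.18, so the median of the other genes was higher too. Those genes include H2-Q1, H2-Q2, H2-Q4, H2-DMb1 and H2-DMb2, which rose, and H2-Q10 and H2-DMa, which were not called. The trend with gene length was not removed from these values, and a shift of the region as such was not tested. Genes next to the members went either way: Brd2 between H2-K1 and Psmb9 changed by −1.65 ± 0.15, and H2-DMb2 and H2-DMb1 rose by 2.68 ± 0.23 and 2.36 ± 0.24 on the other side of Psmb9 from Tap1. These 3 neighbours were chosen after their values were seen.

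**Figure D4:**
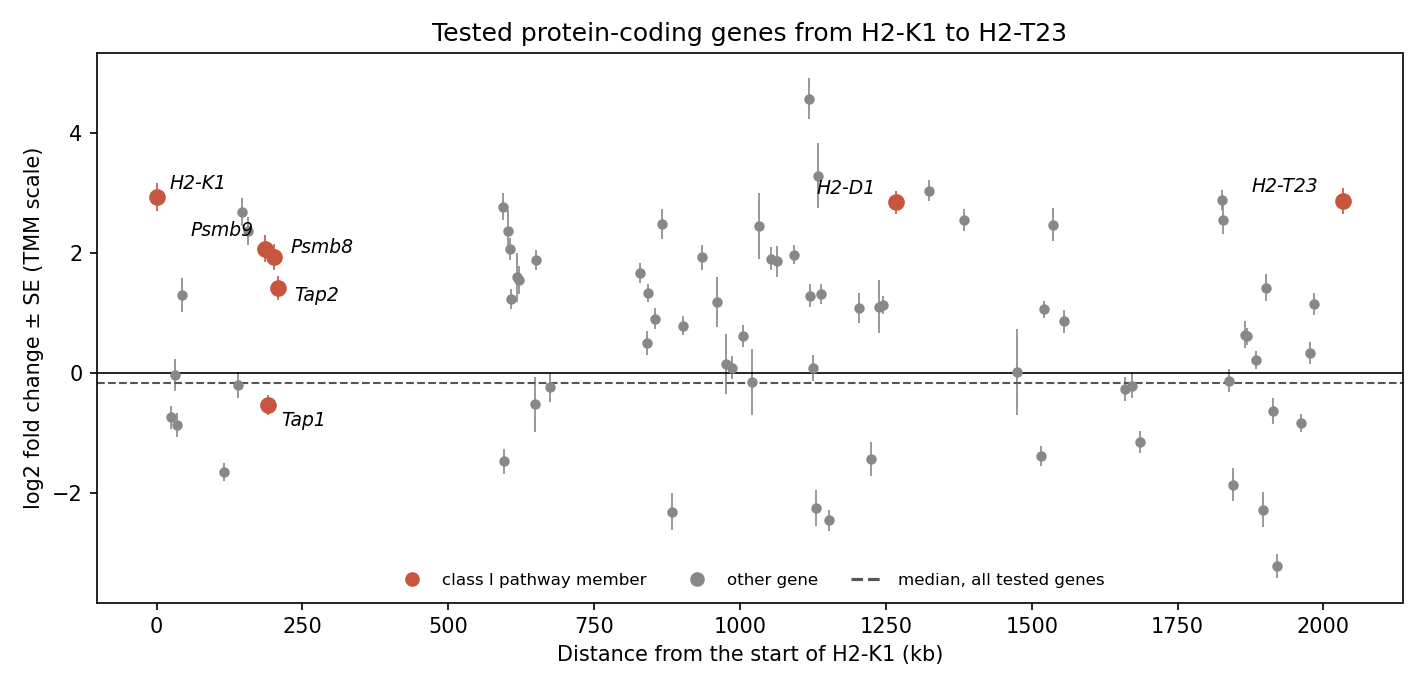
Log2 fold change with its SE for tested protein-coding genes from H2-K1 to H2-T23, by distance from the start of H2-K1 in kb (red, the 7 members in the span; grey, other genes); the dashed line is the median of all tested genes and H2-Q2 is left out because its controls were at 0. H2-K1, H2-D1 and H2-T23 lie between 2.84 and 2.93 across the span, and Tap1 lies below Psmb9, Psmb8 and Tap2 within the same cluster.

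A scaling factor shifts the log2 fold changes of all genes by nearly the same amount. The spacing between members was therefore nearly fixed by construction under the 5 other scalings, while the whole set moved. The median of the members lay 2.55 to 2.59 above that of all genes under each of them, and 2.57 above on the main scale. By library size alone 8 members rose and Tap1 fell by 1.58; with mitochondrially encoded protein genes held equal 9 rose and Tap1 fell by 1.12. Removing the length trend brought the members' median to 1.96 above all genes, with 9 members higher and none lower.

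**Figure D5:**
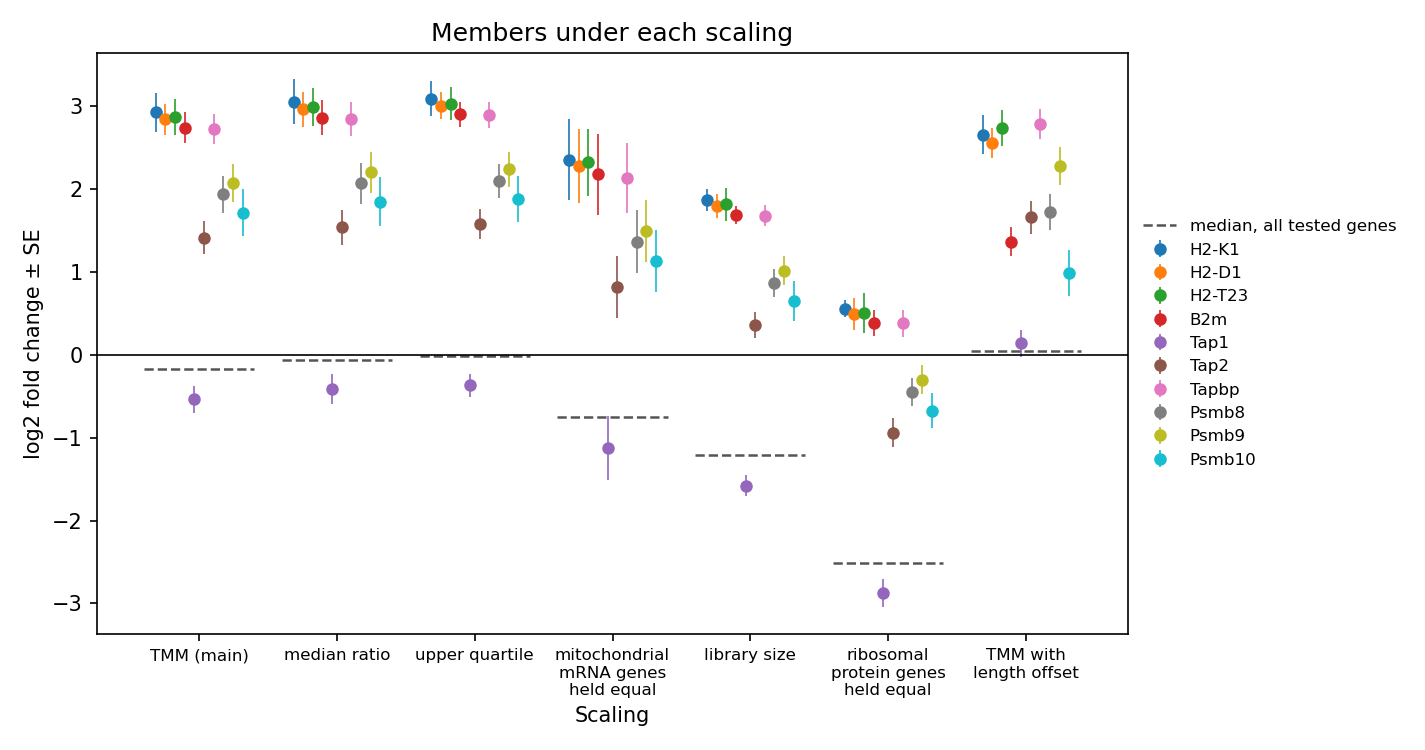
Log2 fold change with its SE for each member under TMM, 5 other scalings and TMM with a gene length offset; dashed lines are the median of all tested genes under that setting. The members shift together from one scaling to the next, B2m and Psmb10 drop and Tap1 turns to 0.14 with the length offset, and with ribosomal protein genes held equal Tap2, Psmb8, Psmb9 and Psmb10 lie below 0.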

How the data were processed

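The authors deposited whole-number counts per Ensembl gene, a gene length in bases (other unit, per the file headers) and FPKM values. Per the submitters' processing notes, which give neither role nor order, the tools included HISAT2 2.1.0, RSEM 1.3.1 and DESeq2 1.24.0, with mm10 and GRCm38 as builds. The authors' FPKM equals count over gene length times 1 constant per library, which relative to the library-total constant was 0.635 to 0.719 for controls and 1.22 to 1.64 for treated libraries. Control columns carry the genotype name WT and were matched by number. Of the genes with a count (24708), edgeR's filterByExpr kept 13290. Counts were scaled by TMM and tested on the whole table with edgeR 4.0.16 (glmQLFit, robust, and glmQLFTest) in R 4.3.3, and p-values were adjusted by Benjamini-Hochberg (threshold 0.05). SE is the log2 fold change over the root of F. The ratios use counts plus 0.5 per kb. Alternatives were other scalings, filters, DESeq2 1.42.0, limma 3.58.1 (voom, and log2(FPKM + 1) or log2(FPKM + 0.1) where mean FPKM was at least 1), a replicate block, a lowess length offset (span 0.3), a fit of protein-coding genes, and each library left out in turn. Fits were tested on simulated data. Named genes are the members, 16 fixed genes, up to 3 rises and 3 falls per pathway list averaging 1 CPM or more, and the 3 closest profiles; 1 of the fixed genes is not reported here. The members and lists were chosen with earlier results of these data known. Figures used matplotlib 3.10.9.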

Additional observations from a re-analysis of the deposited data

How the results depend on the processing

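Over 21 alternatives, the number of members that rose was 8 or 9 of 10 except with ribosomal protein genes held equal, where it was 2. The number that fell was 1 on the main scale, 4 with ribosomal protein genes held equal, and 0 with median-ratio factors, with DESeq2 and with the gene length offset, alone or with a replicate block. With ribosomal protein genes held equal the sign turned for Tap2 (−0.94), Psmb8 (−0.45), Psmb9 (−0.30) and Psmb10 (−0.67); Tap1 turned with the length offset (0.14, or 0.17 with the replicate block). Leaving out 1 library kept 9 rises and 1 fall each time. The ratio of Psmb9 to Psmb6 ranged from −0.0594 to 0.119 on the log2 scale, and turned negative without control replicate 3 (−0.0074) or treated replicate 2; that of H2-D1 to B2m ranged from −0.0846 to 0.267, negative without treated replicate 2. The other 8 ratios kept their sign with an added count of 0.1 or 2, with FPKM values, and with each library left out. FPKM values hold the same counts and lengths, so they could hardly change a ratio. The trend with gene length was not removed from any ratio, and whether the signs hold without it was not tested. The causes were not tested. Over all genes, the share of called genes that were higher was 46.3% with TMM, 22.3% by library size, 29.2% with mitochondrially encoded protein genes and 2.61% with ribosomal protein genes held equal, with 2276, 2561 and 291 genes higher in the last 3 against 4604. Same-numbered libraries had correlations of deviations of 0.22, −0.14 and 0.03. With 3 libraries per group these values cannot settle whether same-numbered libraries were paired. With the replicate block 9 members rose and 1 fell, as without it. Low counts limit H2-T23 and H2-Q2.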
